A study of Mus musculus with 28 samples.

Results

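Cd83, Lad1, Gsta4, Pdzk1ip1, Rln3 and Gm4841 are 6 of the 23420 gene symbols counted in sorted mouse CD4 T cells. They were chosen by their CPM (a gene's reads scaled to the library's read total) in thymic CD4 single-positive (CD4SP) cells, which was higher in mice that lack an enhancer of Foxp3 than in wild type mice, and because they are little described in this setting. The values of that comparison are given as a description with no test. Outside that comparison tests were run, namely of the same deletion in 3 regulatory T (Treg) cell populations and of the differences between those populations. Earlier results of these data were known when the genes and tests were chosen.

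The enhancer is conserved non-coding sequence 3 (CNS3), which lies inside the Foxp3 gene, and the series addresses its part in the formation of the Treg cell repertoire. All mice were male, 6 to 8 weeks old and carried the reporter Foxp3-gfp, in which cells that make Foxp3 fluoresce green. In wild type (WT) groups the reporter allele was otherwise intact, and in the groups whose titles begin with KO it was Foxp3ΔCNS3-gfp, which has no CNS3. For each genotype the populations were thymic Treg cells, thymic non-Treg CD4SP cells (mCD4SP in the titles), and splenic Treg cells of kinds titled rTreg and aTreg. The labels do not spell out the letters m, r and a. Each population had 3 WT and 4 KO libraries, 28 in all, made from RNA that was amplified with a SMART method. The design text speaks of 2 littermates, and the labels do not tie libraries to animals, so the p-values measure the spread between these libraries, which may be technical.

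Treg cells restrain immune responses and depend on the transcription factor Foxp3. They arise in the thymus from CD4SP cells whose T cell receptor meets self antigen, and CNS3 is known to raise the chance that Foxp3 is switched on in such precursors. The CD4SP cells sorted here are labelled non-Treg, and Foxp3-negative precursors of Treg cells are part of the CD4SP stage.

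The 6 genes belong to unrelated families. Cd83 encodes a surface glycoprotein best known from mature dendritic cells and also made by activated lymphocytes and Treg cells. Lad1 encodes ladinin, an anchoring filament protein of epithelial basement membranes. Gsta4 encodes an alpha class glutathione transferase that detoxifies products of lipid peroxidation. Pdzk1ip1 encodes a small membrane protein of kidney epithelium, also called MAP17, that binds the scaffold protein PDZK1. Rln3 encodes the neuropeptide relaxin-3. Gm4841 is a predicted gene of the immunity-related GTPases, which interferon induces and which defend cells against intracellular microbes.

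The genes lie apart in GRCm38 with GENCODE M21 annotation, and positions are given for 5 of them. Cd83 is at chr13:43784775-43803132 on the plus strand, Lad1 at chr1:135818598-135833342 (plus), Gsta4 at chr9:78182774-78209349 (plus), Pdzk1ip1 at chr4:115088708-115093899 (plus) and Rln3 at chr8:84042929-84045000 (minus). The values are counts over exons of the whole gene, and no annotated gene overlaps any of these. RefSeq promoter windows (GRCm38.p6) matched 3 of the 6 symbols. The 250 bases before the RefSeq start are shown for them, because all 3 were higher in KO CD4SP cells and their starts can be set side by side. Capitals mark matches to the motifs searched, other than NFAT. For Rln3 the start in RefSeq and in GENCODE differ, so that the last 21 bases of its window lie inside the GENCODE gene, and positions are counted from the RefSeq start.
Lad1, chr1:135818348-135818597, plus strand: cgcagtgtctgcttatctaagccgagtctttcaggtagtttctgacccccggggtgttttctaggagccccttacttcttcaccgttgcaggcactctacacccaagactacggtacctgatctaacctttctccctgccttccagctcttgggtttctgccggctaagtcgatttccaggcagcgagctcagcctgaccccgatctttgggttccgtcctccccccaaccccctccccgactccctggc
Pdzk1ip1, chr4:115088458-115088707, plus strand: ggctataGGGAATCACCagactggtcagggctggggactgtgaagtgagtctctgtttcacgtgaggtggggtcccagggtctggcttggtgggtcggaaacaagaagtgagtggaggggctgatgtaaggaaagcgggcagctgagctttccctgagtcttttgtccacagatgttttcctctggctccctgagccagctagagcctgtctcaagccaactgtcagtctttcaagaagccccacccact
Rln3, chr8:84044980-84045229, minus strand: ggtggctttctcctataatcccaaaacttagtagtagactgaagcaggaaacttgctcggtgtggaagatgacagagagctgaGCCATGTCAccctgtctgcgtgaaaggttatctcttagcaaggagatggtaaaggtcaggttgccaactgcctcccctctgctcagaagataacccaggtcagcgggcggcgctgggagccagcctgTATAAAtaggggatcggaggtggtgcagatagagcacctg
On both strands the search covered NF-kB (GGG, any 5 bases, CC), AP-1 (TGANTCA), NFAT (GGAAANN), the gamma-activated site (TTCNNNGAA), the antioxidant response element (TGACNNNGC), the interferon-stimulated response element (GAAA, any 2 bases, GAAA) and, added after the data were seen, the TATA box (TATAAA). The Pdzk1ip1 window held the NF-kB letters at -243 to -234 from the start, as did 45.8% of 32851 windows of this length. The Rln3 window held the antioxidant letters on the other strand at -167 to -159 (10.2% of windows) and TATAAA at -40 to -35 (12.4% of windows). The NFAT letters occurred in all 3 sequences and in 55.3% of windows. None of the 3 held the letters of AP-1 (6.75% of windows), the gamma-activated site (7.02%) or the interferon-stimulated element (2.98%). These are letter matches in the reference, and binding was not measured.

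Library totals ran from 2.20e+07 to 4.08e+07 counts in genes. CPM values of single genes are given after scaling by the trimmed mean of M values (TMM), and marker totals without that scaling. The 7 CD4 T cell markers summed to between 6008 and 9655 CPM in every library. Markers of Treg cells (10 genes) summed to at least 6798 CPM in Treg libraries and to between 382 and 714 CPM in CD4SP libraries. Foxp3 was between 446 and 671 CPM in Treg libraries. In CD4SP libraries it was 3.23, 3.38 and 3.49 CPM in WT and 1.27, 1.91, 1.50 and 1.07 CPM in KO, a difference of -1.25 on the log2 scale (edgeR adjusted p = 8.25e-05, and 0.286 by limma-voom, 0.483 when only the groups compared were fitted). Counts over Foxp3 exons do not read the deletion itself, which is non-coding. KO CD4SP library 2 stood apart from the other 6 CD4SP libraries: immature thymocyte markers summed to 621 against 165 to 194 CPM, myeloid markers to 280 against 86.1 to 103 CPM, B cell markers to 31.1 against 7.19 to 8.96 CPM, and Treg markers to 714 against 382 to 501 CPM. Apart from library 2, Treg markers also differed between genotypes, at 382 to 390 CPM in WT and 453 to 501 CPM in KO. Their part in the values of the 6 genes was not tested.

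In CD4SP cells all 6 genes were present at low levels and higher in every KO library than in any WT library. Cd83 had 3.89, 3.76 and 4.91 CPM in WT and 6.75, 11.8, 7.66 and 5.50 CPM in KO. Library 2, the one that stood apart, had the highest value. The means were 4.19 ± 0.629 (SD, n = 3) and 7.93 ± 2.74 CPM (SD, n = 4), a log2 difference of 0.91, and without library 2 the KO mean was 6.64 ± 1.08 CPM (SD, n = 3), 1.58 times the WT mean in place of 1.89 times.

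Lad1 and Gsta4 were the better counted members in these cells. Lad1 had 7.75, 5.30 and 7.24 CPM in WT and 10.6, 13.4, 10.7 and 10.8 CPM in KO, a log2 difference of 0.76. KO libraries 1, 3 and 4 were nearly equal at 10.7 ± 0.0816 CPM (SD, n = 3), with library 2 above them. Gsta4 had 15.4, 15.8 and 13.3 CPM in WT and 30.5, 27.7, 22.5 and 19.2 CPM in KO, a log2 difference of 0.75. For Gsta4 the highest value came from library 1, and leaving out library 2 gave 24.1 ± 5.77 CPM (SD, n = 3) against 25.0 ± 5.06 CPM with it (SD, n = 4).

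Rln3 had 0.779, 0.807 and 0.885 CPM in WT and 2.09, 2.16, 1.19 and 1.89 CPM in KO, a log2 difference of 1.14. The KO mean was 1.83 ± 0.444 CPM (SD, n = 4) and 1.72 ± 0.471 CPM (SD, n = 3) without library 2. The WT libraries lay close together, and KO library 3 was the nearest to them. Il27ra, which encodes a cytokine receptor chain and starts 339 bases beyond the end of Rln3 on the same strand, had 491 ± 34.5 CPM in WT (SD, n = 3) and 475 ± 70.7 CPM in KO (SD, n = 4), so the neighbour was far more abundant and its groups overlapped (log2 difference -0.05, edgeR adjusted p = 1).

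Pdzk1ip1 and Gm4841 had few reads in these cells. Pdzk1ip1 had 2, 0 and 1 counts in WT and 7, 11, 5 and 6 in KO. Over the groups this was 29 against 3 counts, a ratio per library size of 8.56 with an exact 95% interval from 2.65 to 43.9, and 6.96 (2.03 to 36.9) without library 2. Gm4841 had 2, 0 and 0 counts in WT and 13, 6, 21 and 10 in KO. Here library 2 was the lowest KO library, and the ratio of 50 to 2 counts was 22.1 (5.82 to 188), or 25.5 (6.66 to 217) without it. A count of 0 allows up to 3 counts, which is 0.0757 CPM in WT library 2 and 0.0805 CPM in WT library 3. These intervals cover counting error only and are no test of the genotypes, and amplified reads without molecular identifiers are not independent molecules.

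Of 13338 genes tested, 0.195% passed the threshold in either direction and 0.165% as higher in KO, comparing KO with WT CD4SP cells (edgeR quasi-likelihood test, Benjamini-Hochberg adjusted p under 0.05), and 5.03% had groups that did not overlap. Since the members were picked here, nothing is read from their 6 of 6. Which cells carried the extra reads was not tested, and in bulk RNA a change in the number of cells of a type and a change in RNA per cell cannot be told apart.

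**Figure D1:**
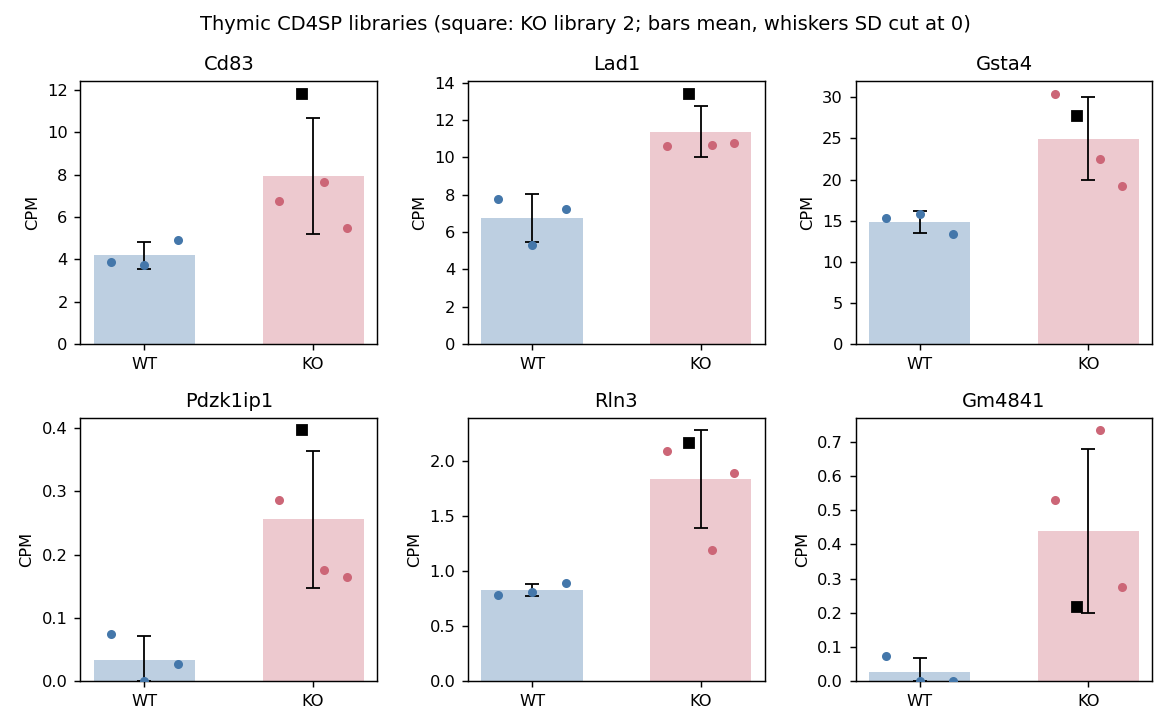
CPM of the 6 genes in the 7 thymic CD4SP libraries, on linear axes from 0. Bars are group means, whiskers the SD, circles single libraries and the black square KO library 2; each KO library lies above each WT library, and library 2 is highest for Cd83, Lad1, Pdzk1ip1 and Rln3 but lowest of the KO libraries for Gm4841.

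All 6 genes were far more abundant in thymic Treg than in CD4SP cells, and their CD4SP levels are given as a share of the thymic Treg level. The WT CD4SP mean was 1.06% of the WT thymic Treg mean for Cd83, 3.25% for Lad1, 7.20% for Gsta4, 0.784% for Pdzk1ip1, 1.71% for Rln3 and 1.71% for Gm4841. The KO minus WT difference in CD4SP cells was 0.949% of the WT thymic Treg level for Cd83, 2.22% for Lad1, 4.92% for Gsta4, 5.17% for Pdzk1ip1 and 2.10% for Rln3. Gm4841 stood apart at 28.6%, with a low WT thymic Treg level, and at 7.76% of the KO thymic Treg level. These shares use the CD4SP libraries that chose the genes and are a description. How many of all genes differ as much between these cells was not counted.

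Per kilobase of exon, levels can be set between genes. In WT thymic Treg cells Gsta4 (163 CPM per kb) and Cd83 (154) were highest, followed by Rln3 (75.8) and Lad1 (61.1), with Pdzk1ip1 (2.41) and Gm4841 (0.510) far lower. In WT CD4SP cells Gsta4 (11.7 CPM per kb) was the highest, and Lad1 (1.99), Cd83 (1.63) and Rln3 (1.30) were close to one another.

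**Figure D2:**
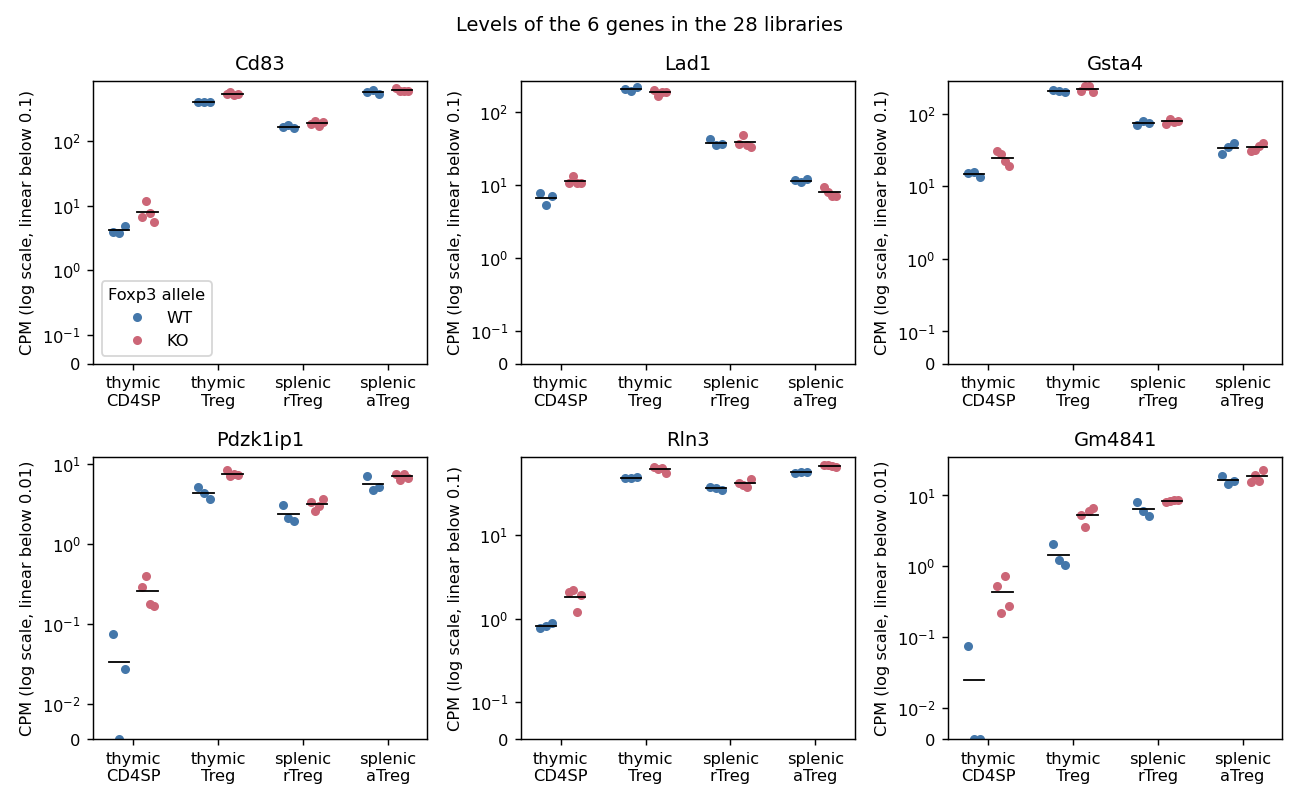
CPM of each gene in every library, by population (x axis) and Foxp3 allele (colour), on a log axis that is linear near 0; short lines are group means. CD4SP libraries are lowest for Cd83, Pdzk1ip1, Rln3 and Gm4841, while for Lad1 the CD4SP and splenic aTreg libraries lie in one range.

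In thymic Treg cells 4 of the 6 genes were higher in KO: Gm4841, Pdzk1ip1, Cd83 and Rln3. The genes were not picked on these cells, but earlier results of these data were known at that time, so the test was not blind. Lad1 and Gsta4 did not pass the test. Between these groups 9.34% of all genes passed, 4.21% as higher in KO, and 22.1% had groups that did not overlap, so this population differed widely between genotypes. The median log2 difference over all genes was 0.02.

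Gm4841 had 2.06, 1.23 and 1.06 CPM in WT thymic Treg libraries and 5.24, 3.54, 6.02 and 6.56 CPM in KO. The groups did not overlap, and the log2 difference was 1.87 ± 0.270 (SE), or 3.67-fold (edgeR adjusted p = 8.15e-05). The adjusted p stayed under the threshold in each of the 17 other settings tried, at most 0.00544.

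Pdzk1ip1 had 5.04, 4.23 and 3.62 CPM in WT and 8.25, 6.94, 7.46 and 7.29 CPM in KO. No library of one genotype reached the range of the other, and the log2 difference was 0.80 ± 0.218 (SE, edgeR adjusted p = 0.0197). The adjusted p crossed the threshold when single libraries were left out, with a difference of similar size: it was 0.0778 (difference 0.79) on leaving out WT library 2, 0.0939 (0.69) on leaving out WT library 3 and 0.0533 (0.75) on leaving out KO library 1.

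Cd83 had 397, 396 and 392 CPM in WT and 533, 560, 518 and 531 CPM in KO. Both groups were tight and clearly separated, with a log2 difference of 0.44 ± 0.116 (SE, edgeR adjusted p = 0.0169). Leaving out any 1 of the 3 WT libraries took the adjusted p to 0.0645, 0.0655 or 0.0540, with the difference at 0.43 to 0.44.

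Rln3 had 47.9, 47.7 and 48.5 CPM in WT and 63.9, 61.3, 62.2 and 55.0 CPM in KO. KO library 4 was the lowest of its group and still above each WT library, and the log2 difference was 0.33 ± 0.0854 (SE, edgeR adjusted p = 0.0138). Without WT library 1 or WT library 2 the adjusted p was 0.0591 or 0.0596, with the difference at 0.33 in both cases.

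Lad1 had 207, 194 and 223 CPM in WT and 205, 169, 190 and 189 CPM in KO, a log2 difference of -0.14 with a 95% interval from -0.37 to 0.08 (edgeR adjusted p = 0.427). Gsta4 had 212, 207 and 199 CPM in WT and 204, 245, 239 and 202 CPM in KO, a difference of 0.11 with an interval from -0.13 to 0.35 (edgeR adjusted p = 0.578). Both sets of libraries overlapped. Whether their KO effect differed between CD4SP and Treg cells was not tested, since the CD4SP values chose the genes.

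Markers of other cells also differed between these thymic Treg groups. The 10 myeloid markers, all detected, summed to 420 to 949 CPM in KO and 278 to 384 CPM in WT. CD8 T cell markers (5 genes, all detected) summed to 303 to 338 CPM in KO and 178 to 232 CPM in WT, and immature thymocyte markers to 148 to 180 CPM in KO and 193 to 219 CPM in WT. B cell markers summed to 53.5 to 58.2 CPM in KO and 36.8 to 40.1 CPM in WT. Stromal and endothelial markers were lower in KO, at 242 to 296 CPM against 300 to 347 CPM in WT. Dendritic cell markers overlapped, at 724 to 1046 CPM in KO and 881 to 957 CPM in WT. Across populations that total ran from 177 to 242 CPM in aTreg libraries and from 965 to 1235 CPM in CD4SP libraries. How far the dendritic and stromal lists read the sorted T cells themselves was not tested. The no-gene share, the part of the reads placed in or between genes that fell in no gene, was 42.3% to 45.0% in KO and 46.3% to 49.3% in WT. With the myeloid total or the no-gene share as a covariate, and likewise without KO libraries 1 and 2, which had the highest myeloid totals, 1 of the 6 genes passed in place of 4, and it was Gm4841 each time. Cd83 then had a log2 difference of 0.16 with the myeloid covariate, 0.42 with the no-gene share and 0.41 without both libraries (0.44 before). For Pdzk1ip1 these values were 0.52, 1.08 and 0.78 (0.80 before). For Rln3 they were 0.22, 0.25 and 0.28 (0.33 before). How far other cells or RNA quality enter the 4 differences was not tested.

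In the spleen no member passed the test between genotypes. None of the 6 genes passed in rTreg cells, where 0.135% of all genes did, nor in aTreg cells, where 0.03% did. An unadjusted p under 0.05 was found for 1 of the 6 in rTreg cells, Rln3, where 6.16% of all genes had one, and for 2 in aTreg cells, Lad1 and Rln3, where 6.73% did. DESeq2 and limma-voom also called 0 of 6 in rTreg cells, and in aTreg cells limma-voom called 0 and DESeq2 called 1, Lad1.

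Lad1 in aTreg cells had 11.8, 11.0 and 12.1 CPM in WT and 9.57, 8.18, 7.05 and 7.22 CPM in KO. The KO libraries were all lower, the opposite of the order in CD4SP cells, with a log2 difference of -0.54 and an interval from -0.82 to -0.27 (edgeR adjusted p = 0.325, DESeq2 adjusted p = 0.0451). In rTreg cells Lad1 had 42.5, 35.8 and 36.5 CPM in WT and 37.4, 48.6, 36.2 and 33.0 CPM in KO, which overlapped (log2 difference 0.02, edgeR adjusted p = 0.999).

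Rln3 had 37.3, 36.0 and 34.5 CPM in WT rTreg cells and 41.9, 39.4, 37.7 and 46.1 CPM in KO, a log2 difference of 0.20 with an interval from 0.02 to 0.38 (edgeR adjusted p = 0.691). In aTreg cells it had 54.2, 56.3 and 57.1 CPM in WT and 68.6, 68.5, 66.2 and 64.1 CPM in KO, a difference of 0.26 with an interval from 0.08 to 0.43 (edgeR adjusted p = 0.528). Every KO library was thus above every WT library in thymic Treg, rTreg and aTreg cells alike, a pattern shown by 36 of 13338 genes (0.27%). It was the only one of the 6 to show it in all 3, and the splenic differences did not pass the test across all genes. The groups of a single population did not overlap for 7.85% of genes in rTreg and 8.13% in aTreg cells.

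Gm4841 had 8.03, 6.02 and 5.12 CPM in WT rTreg cells and 8.19, 8.37, 8.66 and 8.52 CPM in KO. The KO libraries lay close together just above the highest WT library, with a log2 difference of 0.40 (edgeR adjusted p = 0.872). In aTreg cells it had 18.9, 14.7 and 16.0 CPM in WT and 15.7, 19.7, 16.1 and 22.8 CPM in KO, an overlapping 0.17 (edgeR adjusted p = 0.959). The KO effect in thymic Treg cells exceeded that in aTreg cells by 1.71 ± 0.349 (SE) on the log2 scale (edgeR adjusted p = 0.0140, where 0.847% of genes passed). The excess over rTreg cells was 1.47 ± 0.355 (SE, adjusted p = 0.172, where 0.03% passed).

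Cd83, Gsta4 and Pdzk1ip1 overlapped between genotypes in both splenic populations. Cd83 ranged from 157 to 175 CPM in WT and 171 to 206 CPM in KO rTreg cells, and from 524 to 602 and 583 to 649 CPM in aTreg cells. Pdzk1ip1 ranged from 1.93 to 3.05 CPM in WT and 2.59 to 3.56 CPM in KO rTreg cells, and from 4.60 to 6.89 and 6.31 to 7.43 CPM in aTreg cells. Gsta4 showed the smallest shifts of the 3, at 0.07 and 0.03 on the log2 scale, with intervals reaching at most 0.31. For these 3 genes no KO effect differed between any pair of Treg populations by the test of the difference (lowest edgeR adjusted p = 0.297, for Cd83 in thymic Treg against aTreg cells).

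**Figure D3:**
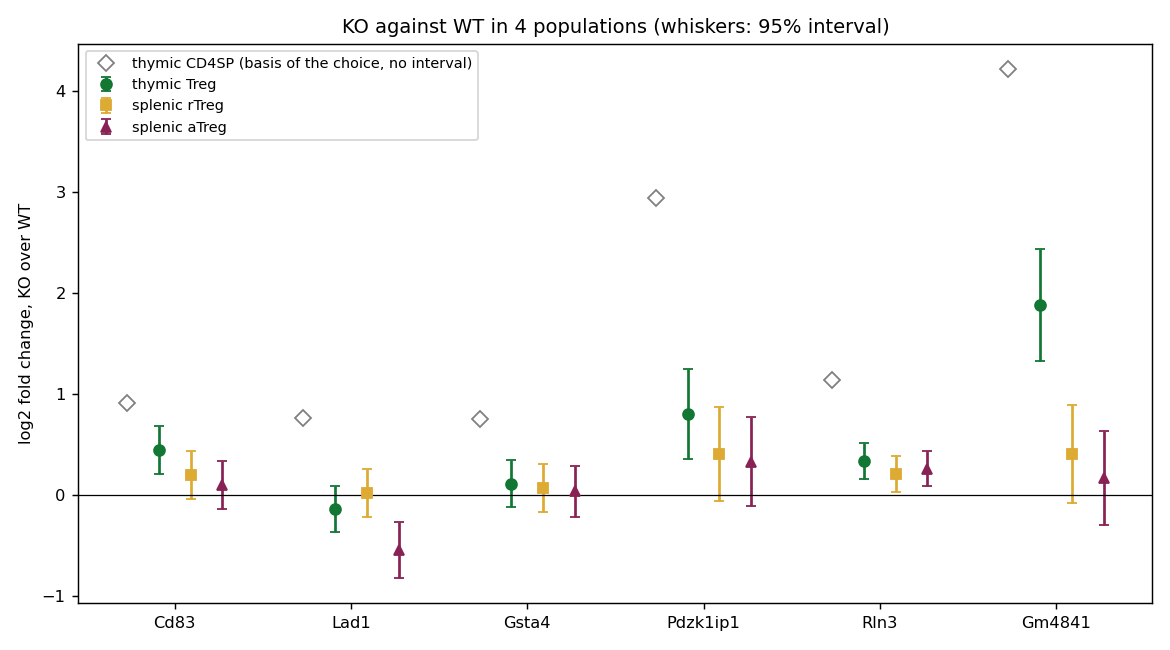
Log2 fold change of KO over WT for each gene in the 4 populations, with 95% intervals for the 3 Treg populations; CD4SP values are open diamonds without an interval because they chose the genes. Thymic Treg intervals lie above 0 for Cd83, Pdzk1ip1, Rln3 and Gm4841 and span 0 for Lad1 and Gsta4, and Lad1 in aTreg cells lies below 0.

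The genes fell into 2 groups by the direction of their change from rTreg to aTreg cells, in both genotypes. Cd83, Pdzk1ip1, Rln3 and Gm4841 rose in this step, and Lad1 and Gsta4 fell. All 6 passed in WT, where 37.9% of genes did (19.9% higher and 18.1% lower in aTreg cells), and all 6 in KO, where 41.6% did (21.7% higher and 19.9% lower), with no overlap between the populations (45.7% and 43% of genes did not overlap). Since many genes differ between these populations, the count is set against a high background. The myeloid marker total also differed between the populations, at 102 to 124 CPM in rTreg libraries and 201 to 362 CPM in aTreg libraries.

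Cd83 went from 165 ± 9.49 CPM in WT rTreg to 566 ± 39.5 CPM in WT aTreg cells (SD, n = 3 each), and from 188 ± 14.7 to 606 ± 29.5 CPM in KO (SD, n = 4 each). The log2 differences were 1.78 in WT and 1.69 in KO (edgeR adjusted p = 8.80e-12 and 9.52e-13). Pdzk1ip1 rose by 1.23 and 1.16 (edgeR adjusted p = 0.000154 and 4.39e-05), though with the myeloid total as a covariate the WT value was 0.78 with adjusted p = 0.124. Rln3 rose by 0.64 and 0.69 (edgeR adjusted p = 2.76e-06 and 5.32e-08). Gm4841 rose by 1.38 and 1.14 (edgeR adjusted p = 7.54e-05 and 0.000103).

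Lad1 showed the widest drop. It was 38.3 ± 3.67 CPM in WT rTreg and 11.6 ± 0.561 CPM in WT aTreg cells (SD, n = 3 each), a log2 difference of -1.72, and 38.8 ± 6.78 and 8.00 ± 1.15 CPM in KO (SD, n = 4 each), a difference of -2.28 (edgeR adjusted p = 4.44e-11 and 2.00e-14). The KO change was larger by 0.56 ± 0.179 (SE), a difference that did not pass (edgeR adjusted p = 0.981). Gsta4 fell by 1.13 and 1.17 on the log2 scale (edgeR adjusted p = 5.49e-08 and 2.09e-09).

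Between thymic Treg and rTreg cells, 5 of the genes were lower in the spleen and Gm4841 was higher. The 2 groups above thus did not hold for this step. All 6 passed in WT, where 30.6% of genes did (13.9% higher and 16.7% lower in rTreg cells), and in KO, where 42.9% did (19.6% higher and 23.3% lower; 45.4% and 38% of genes did not overlap). Lad1 fell from 208 ± 14.5 to 38.3 ± 3.67 CPM in WT (SD, n = 3 each), a log2 difference of -2.44, and by 2.28 in KO. Gsta4 fell by 1.46 and 1.50, and Cd83 by 1.26 and 1.51 (largest edgeR adjusted p of these 6 values = 1.07e-08). Pdzk1ip1 fell by 0.87 and 1.27 (edgeR adjusted p = 0.00648 and 1.53e-05), and Rln3 by 0.42 and 0.55 (edgeR adjusted p = 0.000904 and 3.06e-06). With the myeloid total as a covariate neither Pdzk1ip1 (0.468 and 0.580) nor Rln3 (0.233 and 0.457) had an adjusted p under the threshold in WT or KO.

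Gm4841 rose in rTreg cells by 2.13 in WT, from 1.45 ± 0.536 to 6.39 ± 1.49 CPM (SD, n = 3 each, edgeR adjusted p = 1.30e-06). In KO it rose by 0.66, from 5.34 ± 1.32 to 8.43 ± 0.203 CPM (SD, n = 4 each, edgeR adjusted p = 0.0179). The KO value turned to -0.28 with the myeloid covariate and to -0.13 with the no-gene share as covariate, and its adjusted p was 0.0760 without thymic Treg KO library 2. In WT the libraries of the 4 populations did not overlap, in the order CD4SP, thymic Treg, rTreg and aTreg cells. The share of all genes with such an order was not counted.

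**Figure D4:**
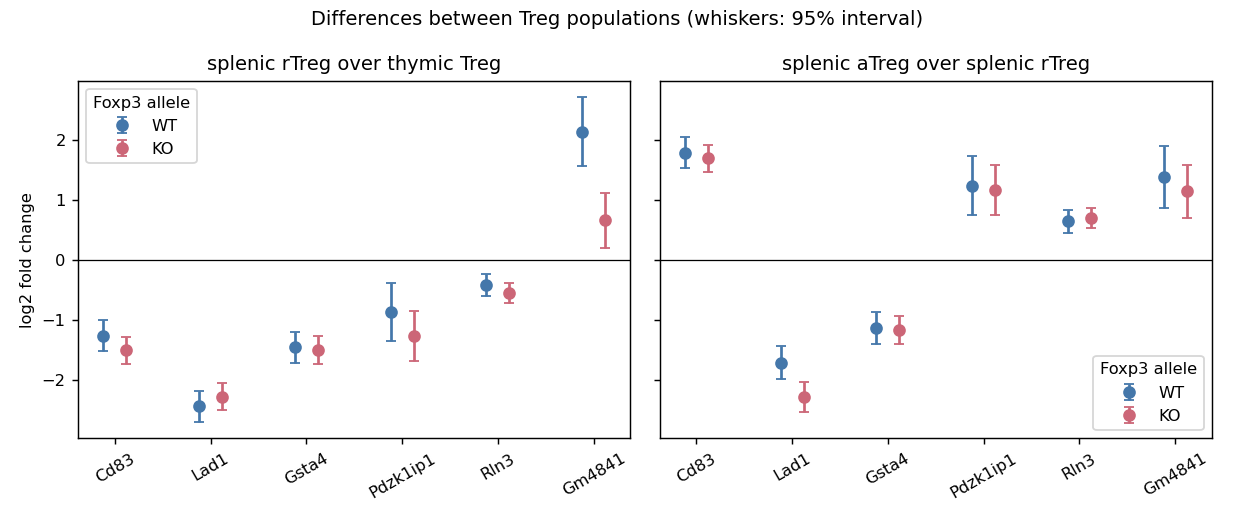
Log2 fold changes of rTreg over thymic Treg cells (left) and aTreg over rTreg cells (right) in WT and KO, with 95% intervals. Lad1 and Gsta4 lie below 0 in both panels, Gm4841 above 0 in both, and Cd83, Pdzk1ip1 and Rln3 below 0 on the left and above 0 on the right.

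In the order of group means, Cd83 ran from aTreg through thymic Treg and rTreg to CD4SP cells, with the aTreg groups and KO thymic Treg cells overlapping as neighbours. Gsta4 in both genotypes, and Lad1 in WT, ran from thymic Treg through rTreg and aTreg to CD4SP cells. In KO the last populations were reversed for Lad1, with each CD4SP library (10.6 to 13.4 CPM) above each aTreg library (7.05 to 9.57 CPM). For Lad1 the WT aTreg (11.6 CPM) and KO CD4SP (11.4 CPM) means were neighbours whose libraries overlapped, as were KO aTreg (8.00 CPM) and WT CD4SP (6.76 CPM). For Gsta4 the WT aTreg libraries (28.1 to 39.4 CPM) and the KO CD4SP libraries (19.2 to 30.5 CPM) overlapped. For Cd83, Pdzk1ip1, Rln3 and Gm4841 no CD4SP library of either genotype reached the range of any Treg group. The share of all genes of which this is true was not counted, and the CD4SP libraries chose the genes, so it is a description.

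The same 2 groups appeared in correlations of log2(CPM + 0.5) over the 28 libraries, given as a description, since libraries share populations and the CD4SP libraries chose the genes. The libraries that gave the 2 groups are among the 28, so the correlations are no separate evidence for them. Pearson's r was 0.988 for Cd83 and Rln3, 0.985 for Cd83 and Pdzk1ip1 and 0.963 for Lad1 and Gsta4. The lowest value among Cd83, Pdzk1ip1, Rln3 and Gm4841 was 0.839, for Pdzk1ip1 and Gm4841. Gm4841 was the loosest member of this group, with r from 0.839 to 0.860, against at least 0.970 among the other genes of it. Between the 2 groups r ran from 0.05 for Lad1 and Gm4841 to 0.668 for Gsta4 and Rln3. Among 10514 other genes, those nearest to Cd83 were Itgb8 (0.995), Myo1e (0.993) and Rgs16 (0.992). Those nearest to Rln3 were Ikzf2 (0.994), which encodes the Treg cell transcription factor Helios, Myo1e (0.994) and Tiam1 (0.993). Nearest to Lad1 were Pla2g4f (0.978), Stat5a (0.976) and Colq (0.976), and to Gsta4 Colq (0.980), Ptrf (0.977) and Wnt3 (0.974). Nearest to Pdzk1ip1 were Fcrl1 (0.987), Ebi3 (0.986) and Ptger2 (0.981), and to Gm4841 Adam19 (0.977), Sdcbp2 (0.973) and Ly6e (0.970). By Spearman's rho at most 1 of the 3 names stayed in each first 3, so the names are not firm.

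The families and settings of the 6 genes were counted from lists. Of all genes, 0.165% passed as higher in KO CD4SP cells and 4.21% in KO thymic Treg cells. From rTreg to aTreg cells 19.9% were higher and 18.1% lower in WT, and 21.7% and 19.9% in KO. From thymic Treg to rTreg cells in WT 13.9% were higher and 16.7% lower. Over all genes the median log2 difference lay between -0.02 and 0.02 in each comparison. Antigen presentation and co-stimulation, the setting in which CD83 stabilises surface molecules, had 0 of 12 genes past the test in KO against WT CD4SP cells (median log2 difference 0.41, against 0.00 for all genes). KO CD4SP library 2 had the highest myeloid and B cell marker totals of the CD4SP libraries. The median without it was not taken, and the part of such cells in it was not tested. In thymic Treg cells 1 of 12 passed, Cd86, a ligand of CD28 and CTLA4, at 115 ± 6.44 CPM in KO (SD, n = 4) against 74.6 ± 3.69 CPM in WT (SD, n = 3, edgeR adjusted p = 7.45e-05), and the median was 0.59. Cd86 also passed with the myeloid total or the no-gene share as a covariate. Myeloid cells express most of this list, their marker totals were higher in these KO libraries, and their part in the median was not tested. None passed in rTreg or aTreg cells (medians 0.18 and -0.14). From rTreg to aTreg cells 9 of 12 were higher in WT and 7 in KO, as Cd83 was, among them Cd86 (0.98 and 0.85) and Cd74 (1.62 and 1.33), the invariant chain. The myeloid totals were also higher in aTreg than in rTreg libraries. With them as a covariate Cd86 still passed in both genotypes and Cd74 in KO, while Cd74 in WT had a difference of 0.77 (edgeR adjusted p = 0.0942).

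Genes induced by T cell receptor and NF-kB signals, a group in which Cd83 is often counted, had 2 of 26 higher in KO CD4SP cells. They were Ctla4, an inhibitory receptor (31.6 ± 10.2 CPM in KO, n = 4, against 19.7 ± 2.01 CPM in WT, n = 3, SD, edgeR adjusted p = 0.0213), and Tnfrsf9, the co-stimulatory receptor 4-1BB (50.0 ± 8.24 against 34.4 ± 2.55 CPM, adjusted p = 0.0330). Without KO library 2 the adjusted p was 0.0947 and 0.173, and the median of the list was 0.06. In thymic Treg cells 4 of 26 were higher in KO, including Icos (log2 0.48) and Tnfrsf18 (0.29), which encode co-stimulatory receptors, and 1 was lower, Bcl2l11 (-0.49), which encodes the death factor BIM. With the no-gene share as a covariate Icos, Tnfrsf18 and Bcl2l11 had adjusted p of 0.159, 0.513 and 0.0726. None of the 26 passed in either splenic population (medians 0.09 and 0.05). From rTreg to aTreg cells 16 were higher and 2 lower in WT, and 17 and 2 in KO.

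Of 15 hemidesmosome and epithelial adhesion genes, the setting of ladinin, 8 were tested and none passed between KO and WT in any population (medians 0.12 in CD4SP, -0.19 in thymic Treg, 0.07 in rTreg and -0.03 in aTreg cells). From thymic Treg to rTreg cells Jup (plakoglobin) fell with Lad1 in both genotypes, by 2.27 in WT and 1.87 in KO, while Itga6, an integrin chain of hemidesmosomes, rose by 1.03 and 1.07. The 10 markers of thymic epithelial cells summed to 4.99 CPM in KO CD4SP library 2, which also had the highest Lad1 value, and to between 1.36 and 2.23 CPM in the other 6 CD4SP libraries. Their part in the Lad1 values was not tested. Among them Krt5, Krt14, Foxn1 and Cldn3 had 0 counts in both genotypes.

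Of 24 other glutathione transferases 16 were tested. None passed between KO and WT in CD4SP cells (median 0.08), and in thymic Treg cells 1 passed, Gstp1 (log2 0.27, edgeR adjusted p = 0.0425, and 0.0838 when only the groups compared were fitted; median 0.20). None passed in rTreg or aTreg cells (medians -0.04 and -0.08). Glutathione synthesis and NRF2 target genes had 0 of 11 past the test in CD4SP cells and 1 of 11 in thymic Treg cells, Txnrd1 (log2 0.25, edgeR adjusted p = 0.0401, and 0.162 with only the groups compared), a thioredoxin reductase. In rTreg and aTreg cells none of the 11 passed (medians -0.05, 0.22, 0.07 and -0.03 in the order CD4SP, thymic Treg, rTreg and aTreg).

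Few partners of Pdzk1ip1 and Rln3 reached the count filter. Of 6 PDZK1 scaffold partners 2 were tested, and neither passed between KO and WT in any population. One of them, Slc9a3r1, which encodes the scaffold protein NHERF1, was abundant, and it rose from 255 ± 26.6 CPM in WT thymic Treg to 334 ± 42.4 CPM in WT rTreg cells (SD, n = 3 each, log2 0.39, edgeR adjusted p = 0.00672). Of 8 relaxin peptides and receptors only Insl6, an insulin-like peptide, was tested, and it did not pass between KO and WT either. Insl6 fell from thymic Treg to rTreg cells by 0.86 in WT and 0.83 in KO, as Rln3 did to a smaller extent. No receptor of relaxin-3 reached the count filter in these cells.

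The immunity-related GTPases bear on Gm4841. In KO CD4SP cells 1 of 14 others was higher, Iigp1, at 357 ± 38.5 CPM (SD, n = 4) against 240 ± 33.4 CPM in WT (SD, n = 3, log2 0.57, edgeR adjusted p = 0.0416), and its adjusted p was 0.414 without WT library 1. In KO thymic Treg cells 2 of 14 were higher, and they are the annotated genes on either side of Gm4841. Gm4951, 20484 bases away, had 14.1 ± 3.93 CPM in KO (SD, n = 4) and 5.26 ± 2.27 CPM in WT (SD, n = 3, log2 1.41, edgeR adjusted p = 0.00381). F830016B08Rik, 20107 bases away, had 9.94 ± 2.43 and 4.19 ± 1.23 CPM (log2 1.23, edgeR adjusted p = 0.00301). In CD4SP cells Gm4951 had 2.97 ± 0.524 CPM in KO (SD, n = 4) and 1.02 ± 0.853 CPM in WT (SD, n = 3) without passing (edgeR adjusted p = 0.106), and F830016B08Rik had 0.628 ± 0.265 and 0.456 ± 0.476 CPM, which overlapped (edgeR adjusted p = 0.976). Members of this family are similar in sequence. Reads placed at more than 1 site were counted on a line that names no gene (22.8% to 30.4% of all lines together). How many of them belong to near-identical copies of this family is not known.

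F830016B08Rik also followed Gm4841 between populations, rising by 1.62 from thymic Treg to rTreg and by 2.10 from rTreg to aTreg cells in WT. Gm4951, the other neighbour, rose by 1.58 and 0.82 in WT (edgeR adjusted p = 0.000283 and 0.0268). In KO Gm4951 rose by 0.73 in the first step (edgeR adjusted p = 0.0215) and by 0.30 in the second (edgeR adjusted p = 0.351). Iigp1 passed as higher in both steps and both genotypes. Tgtp1, another GTPase of the family, did not follow Gm4841: in WT it rose by 0.93 in the first step and fell by 1.07 in the second. Over the list 6 of 14 were higher and 1 lower in rTreg than in thymic Treg cells in WT, and 3 were higher and 4 lower in aTreg than in rTreg cells. None of the 14 passed between KO and WT in rTreg or aTreg cells (medians -0.13 and -0.14).

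Genes induced by interferon-gamma had 1 of 19 higher in KO CD4SP cells, Irf8, a transcription factor that myeloid and B cells also express (5.86 ± 2.09 CPM, n = 4, against 3.06 ± 0.274 CPM, n = 3, SD, edgeR adjusted p = 0.0308, and 0.176 without KO library 2). In KO thymic Treg cells 4 of 19 were higher, among them Gbp3 (log2 0.47), the immunoproteasome subunit gene Psmb9 (0.25) and the chemokine gene Cxcl10 (1.15), with a list median of 0.11. None passed in the splenic populations (medians -0.03 in both). With the no-gene share as a covariate Gbp3, Psmb9 and Cxcl10 had adjusted p of 0.449, 0.653 and 0.313.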

How the data were processed

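RNA from 28 sorted mouse T cell libraries was measured by RNA-seq. Per the submitters' processing notes, reads were handled with Trimmomatic, STAR and HTSeq on mm10 (versions and strand setting: not given in the sources used here). Files deposited by the authors hold raw read counts by gene symbol. Lines that name no gene were left out of library sizes (no-gene reads made up 42.3% to 49.7% of those placed in or between genes).

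Groups came from the sample titles. The 6 members, the gene lists and the tests were chosen with earlier results of these data known. A single model of the 28 libraries, with 8 group means, was fitted in edgeR 4.0.16 (R 4.3.3): TMM factors from 0.97 to 1.04, the default count filter (13338 genes kept), quasi-likelihood test, Benjamini-Hochberg adjustment over all genes tested, threshold 0.05. The biological coefficient of variation was 12.7%. SDs are over libraries. Differences of KO effects between Treg populations were tested as contrasts of that fit. Besides members and Foxp3, the text names up to 3 genes per list and comparison, by smallest p among those passed, then the 3 genes of highest Pearson correlation with each member (mean of at least 1 CPM), neighbours in the genome, and marker genes at 0; 1 gene that this rule names is not reported here. Alternatives were no count filter, RLE size factors, DESeq2 1.42.0, limma-voom (limma 3.58.1), only the groups compared, a replicate block, 2 covariates and each library left out. The fit was tested on simulated data. No 2 libraries of a group agreed within sampling noise (chi-square per degree of freedom of at least 7.08). Same-numbered aTreg and rTreg KO libraries deviated together (r from 0.177 to 0.328). Differently numbered libraries were not compared, so this does not show that the replicate numbers pair samples. In the other comparisons at least 1 pair fell under a limit of 0.1.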

Additional observations from a re-analysis of the deposited data

Results flagged for a closer look

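Lad1 in KO CD4SP library 2, at 13.4 CPM, lay far from the other 3 libraries of its group (10.6, 10.7 and 10.8 CPM). Of 24 member and group combinations with 4 libraries this was the 1 so marked, and chance marks about 1 in 20. It is the library with the high immature thymocyte, myeloid and B cell marker totals, and their part in the value was not tested.

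The KO effect on Gm4841 was larger in thymic Treg than in aTreg cells by 1.71 on the log2 scale (edgeR adjusted p = 0.0140). All 4 KO libraries exceeded all 3 WT libraries in thymic Treg cells, while the aTreg libraries of the genotypes overlapped.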

How the results depend on the processing

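The number of genes past the test in CD4SP cells was 26 and moved to 4 by limma-voom, 61 by DESeq2 and 0 when only the groups compared were fitted (828 had an unadjusted p under 0.05 in the fit to all groups), and to 15 to 35 with 1 library left out. The count of members past the test in thymic Treg cells, 4, was 1 with the no-gene share or the myeloid total as a covariate, 1 without KO libraries 1 and 2 (chosen after seeing the data), and 1 to 4 with 1 library left out, lowest without WT library 2. In aTreg cells it was 1 by DESeq2 in place of 0. In KO rTreg against thymic Treg cells it was 3 with the myeloid covariate in place of 6. Of the single values, those that changed sign were small in the fit to all groups, except Gm4841 in KO rTreg against thymic Treg cells (-0.13 with the no-gene share, -0.28 with the myeloid total). With the no-gene share they were Gsta4 in thymic Treg (-0.081), Lad1 in rTreg (-0.00915) and Gsta4 in aTreg cells (-0.00664). With the myeloid total it was Gm4841 in aTreg cells (-0.036). With 1 library left out they were Lad1 in rTreg, which ranged from -0.11 to 0.098, and Gsta4 in aTreg cells, which ranged from -0.091 to 0.15. The cause was not tested. The replicate block changed no call of a member: 4 of 6 passed in thymic Treg cells with it, and Cd83 in KO aTreg against rTreg cells was at 1.69. Depth limits Pdzk1ip1 and Gm4841 in CD4SP cells, where WT libraries had at most 2 counts.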
